A study of Mus musculus with 9 samples.

Results

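Mesenchymal transcription factors were described in C2C12 cells depleted of either splice isoform of the histone variant macroH2A1. The members were 10 genes, *Twist1*, *Twist2*, *Snai1*, *Snai2*, *Zeb1*, *Zeb2*, *Prrx1*, *Scx*, *Osr1* and *Runx2*, taken by name from the 52780 genes of the count table. All 10 were found, and 9 of them passed the filter on low counts and were tested. *Twist1* was not tested. C2C12 is an established mouse myoblast line, of wild-type genotype by the labels, which fuses into myotubes when serum is withdrawn. All cells were collected at day 4 of differentiation, 3 replicates each of control cells (si Ctrl), cells transfected with siRNA against the macroH2A1.1 isoform (si mH2A1.1) and cells transfected with siRNA against the macroH2A1.2 isoform (si mH2A1.2). The siRNAs against both isoforms were used at 10 nM. The control libraries carry the label WT, and whether those cells had received the scramble siRNA was not stated in the labels. All 9 libraries came from 1 cell line, so the values describe this line in culture.

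Twist and Snail proteins and the Zeb proteins are known as repressors or activators that keep cells in a mesenchymal state, and they bind the E-box, a short DNA motif. In epithelial cells they silence adhesion genes such as *Cdh1* (E-cadherin), often downstream of TGF-beta. Prrx1 marks limb and connective tissue mesenchyme, Scx (scleraxis) directs tendon genes such as *Tnmd*, Osr1 is found in connective tissue cells of developing muscle, and Runx2 is the key factor of osteoblasts. Myoblasts themselves are of mesodermal origin and are known to use several of these genes.

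The labelled cell type was checked against its markers. Of the myotube genes, *Myog*, the myogenic regulator myogenin, was at 337 to 745 CPM (a gene's counts relative to the library total, scaled between libraries by the TMM method) and *Mymk*, which encodes the fusion protein myomaker, was at 471 to 668 CPM over the 9 libraries. *Vim*, encoding the mesenchymal filament vimentin, was at 2328 to 3728 CPM. *Epcam*, an epithelial surface marker, had at most 1 count in any library and *Cdh1* was at 0.600 to 1.16 CPM. Other genes of the epithelial list were higher, with the junction genes *Pkp1* at 150 to 333 CPM and *Jup* at 124 to 239 CPM. Totals were 36924252 to 42223108 counts per library. *H2afy*, the gene of both macroH2A1 isoforms, was counted as a whole, so the depletion of 1 isoform was seen only in the sum. It was at 59.9 ± 3.18 CPM (SD, n = 3) in si Ctrl, 33.3 ± 4.87 CPM in si mH2A1.1 and 45.7 ± 2.20 CPM in si mH2A1.2. In edgeR's quasi-likelihood test with Benjamini-Hochberg adjustment the fall with si mH2A1.1 passed at an adjusted p of 0.00331, while the lower level with si mH2A1.2 had an adjusted p of 0.108 and did not. DESeq2 called the latter at an adjusted p of 0.0391, and all si mH2A1.2 libraries were below those of si Ctrl.

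*Snai1* and *Runx2* were the members called against the control in the main edgeR test, calls that did not hold in every setting, as described below. Their promoters are shown because both bear on factors of this group. Each is a window of 300 bases around the start in RefSeq (GRCm38.p6), and 6 of the 10 members had such a window in the table. The *Snai1* window is chr2:167537945-167538244 on the plus strand, and the *Runx2* window is chr17:44814578-44814877 on the minus strand. Capitals mark CACCTG, the E-box that Snail and Zeb proteins are known to bind, in *Snai1* and ACCACA, the core of the Runx motif, in *Runx2*. Both strands were searched.
Snai1: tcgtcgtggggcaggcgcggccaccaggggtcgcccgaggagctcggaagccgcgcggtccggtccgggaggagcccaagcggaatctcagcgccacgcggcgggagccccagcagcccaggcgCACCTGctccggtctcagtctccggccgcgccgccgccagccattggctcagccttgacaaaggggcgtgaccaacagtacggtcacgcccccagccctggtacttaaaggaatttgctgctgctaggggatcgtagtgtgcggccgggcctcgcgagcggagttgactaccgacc
Runx2: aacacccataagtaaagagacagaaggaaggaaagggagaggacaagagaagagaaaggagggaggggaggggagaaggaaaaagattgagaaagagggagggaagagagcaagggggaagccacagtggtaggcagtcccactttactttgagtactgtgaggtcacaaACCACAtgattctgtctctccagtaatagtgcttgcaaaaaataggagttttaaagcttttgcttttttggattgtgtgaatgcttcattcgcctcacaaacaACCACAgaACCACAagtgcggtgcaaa
The E-box in *Snai1* begins at position -126 from the start, and the matches in *Runx2* begin at positions -80, 23 and 31. Positions count from the RefSeq start. For *Runx2* that start, and the match at -80, lie inside the gene's annotated span given below, which reaches to 44814797. Of all 32851 windows of this length, 20.21% held CACCTG and 16.76% held ACCACA, so either motif is common. A match is a description of the letters and not of binding.

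Levels of different genes are compared per kilobase of exon, in si Ctrl. The length is that of all annotated exons of a gene together, which can exceed the transcripts present, so the order depends on it. By CPM alone *Zeb2* was at 136 and *Scx* at 29.8 in si Ctrl. *Zeb1* was highest at 18.0 ± 2.16 CPM per kb (SD, n = 3), followed by *Scx* at 14.8 ± 2.56, *Snai1* at 13.8 ± 3.94 and *Snai2* at 12.5 ± 2.30 CPM per kb. *Prrx1* was at 8.32 to 10.5, *Zeb2* at 6.84 ± 0.363 and *Runx2* at 5.51 ± 1.70 CPM per kb. *Osr1* and *Twist2* were at 1.91 ± 0.670 and 1.24 ± 0.247 CPM per kb. In this order, the replicate ranges of neighbours overlapped except between *Prrx1* and *Zeb2*, between *Runx2* and *Osr1*, and between *Twist2* and *Twist1*. *Twist1* had 1 count in 1 si Ctrl library and 1 si mH2A1.2 library and 0 in the other 7 libraries, below the 3 counts taken as the smallest amount told from 0. No fold change is given for it, and the depth does not show whether it was expressed.

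With si mH2A1.1, 2 of the 9 tested members were downregulated, *Snai1* and *Runx2*, and none was upregulated. Genes called at an adjusted p of 0.05 or less were 11.1% of the 19545 genes tested in this comparison, and those called lower were 4.93%. The median log2 fold change of the 9 members was -0.03, beside -0.01 over all genes tested. With stricter cutoffs (adjusted p under 0.01 and a log2 change of 0.8 or more either way) no member passed, against 1.8% of genes. With si mH2A1.2, none of the 9 passed, at an adjusted p of 0.05 or less (2.35% of genes), at the stricter cutoffs (0.179% of genes) or at an unadjusted p under 0.05 (15.9% of genes). All 9 fitted values were above 0 there, with a median log2 fold change of 0.26 against 0.00 over all genes. Both comparisons use the same si Ctrl libraries. In the direct comparison of si mH2A1.1 with si mH2A1.2, 3 members were lower, *Snai1*, *Runx2* and *Osr1*, and none was higher, where 22.5% of genes were called and 10.5% were called lower. Of these, *Snai1* and *Runx2* passed the stricter cutoffs, which 6.38% of genes passed. Since whole cultures were measured, fewer cells of a kind and less RNA per cell cannot be told apart.

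**Figure D1:**
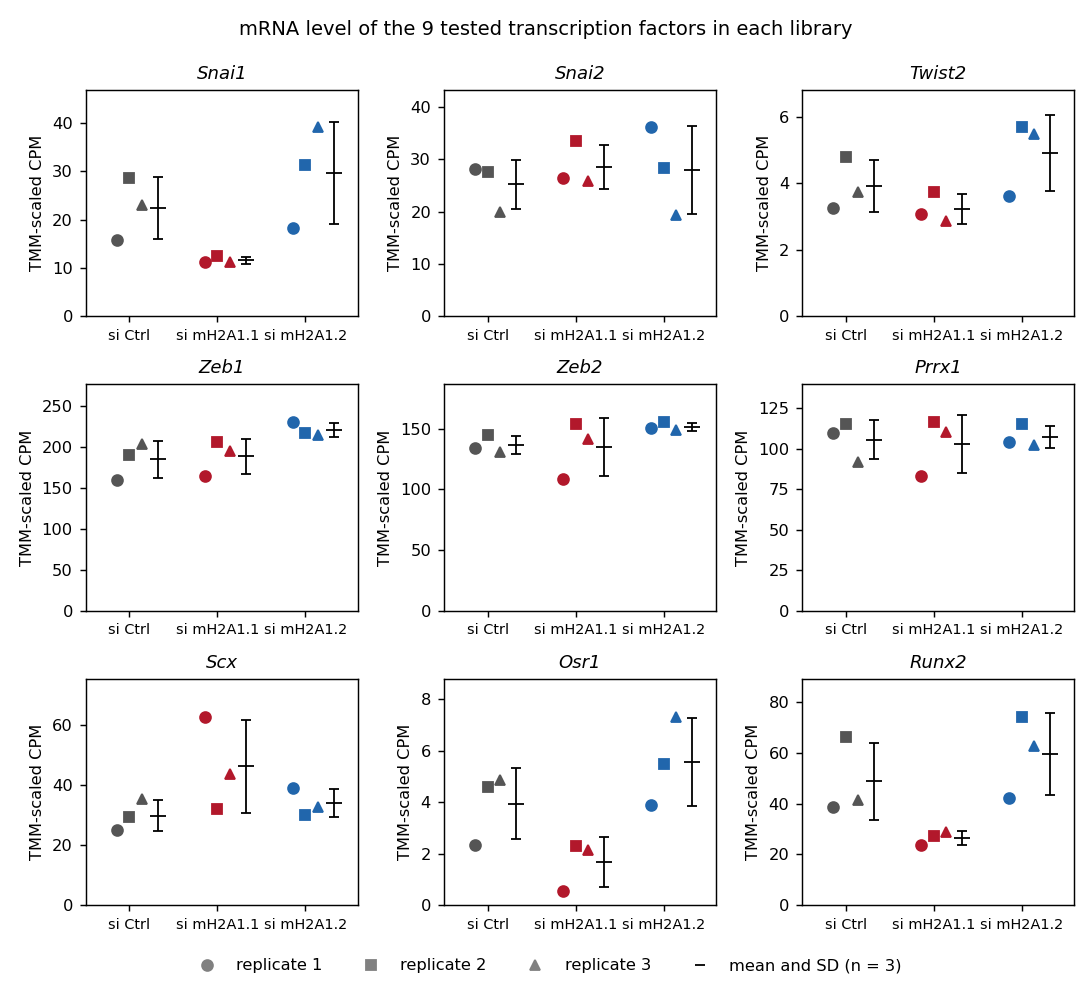
TMM-scaled CPM of the 9 tested factors in each library, with 1 panel per gene and its own axis from 0. Symbols are replicates, and bars are the mean and SD of 3 replicates. For *Snai1*, *Osr1* and *Runx2* all si mH2A1.1 libraries lie below all libraries of both other conditions, while *Snai2* and *Prrx1* overlap in all conditions.

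*Snai1* encodes Snail, a zinc finger repressor, and lies on chromosome 2 (167538195 to 167542814, GRCm38). Its level was 15.8, 28.5 and 23.0 CPM in si Ctrl replicates 1 to 3, and 11.1, 12.4 and 11.1 CPM in si mH2A1.1. With si mH2A1.2 it was 18.3, 31.4 and 39.2 CPM. All si mH2A1.1 libraries were below all others, and the si mH2A1.2 libraries overlapped those of the control. Against si Ctrl, the log2 fold change with si mH2A1.1 was -0.96 (standard error 0.27), 1.94-fold lower, with an adjusted p of 0.0478 from edgeR. Against si mH2A1.2 it was -1.36 (standard error 0.27), 2.56-fold lower, with an adjusted p of 0.00713. Between si mH2A1.2 and si Ctrl a log2 fold change of 0.40 was fitted, and its 95% interval reached from -0.19 to 0.99.

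The first of these calls was close to its threshold. It was lost, with an adjusted p of 0.164 without si Ctrl replicate 2, 0.108 without si Ctrl replicate 3, 0.149, 0.0618 and 0.134 without si mH2A1.1 replicates 1, 2 and 3, and 0.0679 without si mH2A1.2 replicate 2. The log2 fold change stayed between -1.16 and -0.75. With all libraries the adjusted p against si Ctrl was 0.0145 with the replicate number as a block, 0.00686 with DESeq2 and 0.0757 with limma-voom. The difference from si mH2A1.2 was called without any 1 of the 9 libraries, with adjusted p-values of 0.00215 to 0.0312.

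*Snai2*, which encodes the related repressor Slug and lies on chromosome 16 (14705852 to 14709385), was at 19.9 to 28.2 CPM in si Ctrl. It was at 25.8 to 33.5 CPM in si mH2A1.1 and 19.4 to 36.1 CPM in si mH2A1.2. The 3 ranges overlapped, and the log2 fold change with si mH2A1.1 was 0.18 with a 95% interval of -0.31 to 0.67. The balance of both genes within a library does not depend on scaling. The log2 ratio of *Snai1* to *Snai2* counts was -0.84, 0.05 and 0.21 in si Ctrl, -1.25, -1.43 and -1.22 in si mH2A1.1, and -0.98, 0.15 and 1.01 in si mH2A1.2. It was below the values of both other conditions in every si mH2A1.1 library. The mean difference from si Ctrl was -1.11, with an exact 2-sided permutation p of 0.1, the smallest that 3 against 3 allows, and 0.375 after Benjamini-Hochberg adjustment over the 15 ratio tests made.

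*Runx2* lies on chromosome 17 (44495987 to 44814797). It was at 38.8, 66.0 and 41.4 CPM in si Ctrl, 23.5, 27.3 and 28.6 CPM in si mH2A1.1, and 42.1, 74.2 and 62.4 CPM in si mH2A1.2. As for *Snai1*, the si mH2A1.1 libraries did not overlap with the others. The log2 fold change of *Runx2* with si mH2A1.1 was -0.88 (standard error 0.23), 1.84-fold lower than si Ctrl, with an adjusted p of 0.0396 from edgeR. Against si mH2A1.2 it was -1.17 (standard error 0.24, adjusted p = 0.00724), and this call held without any 1 library, at 0.00386 to 0.0348. The call against si Ctrl was lost without si Ctrl replicate 2 (adjusted p = 0.138) or 3 (0.0611), without si mH2A1.1 replicate 1 (0.145), 2 (0.0577) or 3 (0.0955), and without si mH2A1.2 replicate 3 (0.0523). With all libraries the adjusted p against si Ctrl was 0.00675 with the replicate number as a block, 0.00482 with DESeq2 and 0.0518 with limma-voom. Between si mH2A1.2 and si Ctrl the log2 fold change was 0.29 with a 95% interval of -0.22 to 0.80. The antisense gene *Runx2os1* shares 519 exonic bases with *Runx2* and had 11 to 27 counts per library, and whether counting used strand was not stated.

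*Runx1*, the relative of *Runx2* known from blood formation, was at 111.9 to 124.7 CPM over all 9 libraries. The log2 ratio of *Runx2* to *Runx1* counts was -1.68, -0.76 and -1.47 in si Ctrl and -2.38, -2.17 and -2.08 in si mH2A1.1. In si mH2A1.2 it was -1.50, -0.61 and -0.98. The si mH2A1.1 values were again the lowest, by a mean of -0.91 from si Ctrl (exact 2-sided permutation p of 0.1, adjusted 0.375). The ratio of *Zeb1* to *Zeb2* overlapped in all conditions, with means of 0.43, 0.50 and 0.54 on the log2 scale. The ratios of *Osr1* to its scarce relative *Osr2* (8 to 27 counts per library) and of *Scx* to *Bop1*, the gene in whose intron it lies, also overlapped in all conditions. Their mean log2 differences between si mH2A1.1 and si Ctrl were -0.60 and 0.30, with exact 2-sided permutation p-values of 0.5 and 0.4.

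**Figure D2:**
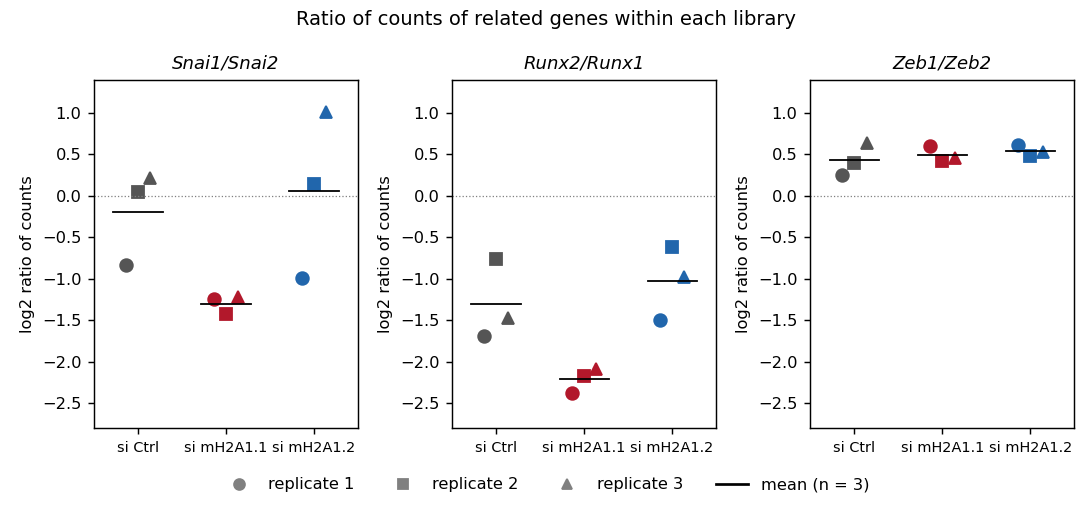
Log2 ratio of the counts of related genes within each library, for *Snai1* over *Snai2*, *Runx2* over *Runx1* and *Zeb1* over *Zeb2*. Symbols are replicates and lines are means of 3. The first 2 ratios are lowest in all si mH2A1.1 libraries, and the third overlaps between conditions.

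*Osr1*, on chromosome 12 (9570116 to 9581500), encodes a zinc finger factor of the odd-skipped family. It was scarce, with 23 to 273 counts per library. Its level was 2.36, 4.61 and 4.87 CPM in si Ctrl, 0.568, 2.32 and 2.17 CPM in si mH2A1.1, and 3.91, 5.51 and 7.33 CPM in si mH2A1.2. The si mH2A1.1 libraries were below all others, although the highest of them, at 2.32 CPM, lay next to the lowest control at 2.36 CPM. The log2 fold change with si mH2A1.1 was -1.22 (standard error 0.46) and did not pass the threshold, with an adjusted p of 0.109 from edgeR. With the replicate number as a block the log2 fold change was -1.30 and the adjusted p was 0.0113. Against si mH2A1.2 it was -1.72 (standard error 0.46, adjusted p = 0.0245 from edgeR), and this call was lost without si mH2A1.2 replicate 2 (0.0651) or replicate 3 (0.0766).

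*Scx* was the member with the highest fitted value in si mH2A1.1. It lies on chromosome 15 (76457452 to 76459458) within an intron of *Bop1*, with which it shares no exonic base. The level of *Scx* was 24.9, 29.3 and 35.1 CPM in si Ctrl, 62.6, 32.0 and 43.7 CPM in si mH2A1.1, and 39.1, 30.1 and 32.7 CPM in si mH2A1.2. Replicate 1 of si mH2A1.1 stood above the rest, and replicate 2 lay within the control range. The log2 fold change of 0.63 (standard error 0.22) did not pass, with an adjusted p of 0.0902 from edgeR. It passed without si mH2A1.1 replicate 2, at a log2 fold change of 0.83 and an adjusted p of 0.0214. Without si mH2A1.1 replicate 2 the difference from si mH2A1.2 passed as well, at 0.64 and an adjusted p of 0.0372, where with all libraries it was 0.44 and 0.181.

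The other members differed less. *Zeb1*, encoding a zinc finger and homeodomain repressor, was at 160 to 203 CPM in si Ctrl, 165 to 206 CPM in si mH2A1.1 and 214 to 230 CPM in si mH2A1.2. Its si mH2A1.2 libraries lay above all 6 others, but the log2 fold change of 0.26 from si Ctrl did not pass the threshold (95% interval -0.01 to 0.52, adjusted p = 0.327 from edgeR). *Zeb2*, its relative, was at 131 to 144 CPM in si Ctrl, 108 to 154 CPM in si mH2A1.1 and 149 to 155 CPM in si mH2A1.2. The si mH2A1.2 libraries were above the control here too, with a log2 fold change of 0.15 and a 95% interval of -0.12 to 0.43. In exons, *Zeb2* shares 653 bases with the antisense gene *Zeb2os* (44 to 106 counts per library) and *Zeb1* shares 198 bases with *Gm10125* (60 to 129 counts).

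*Prrx1*, on chromosome 1 (163245119 to 163313710), was at 92.1 to 116 CPM in si Ctrl, 82.9 to 117 CPM in si mH2A1.1 and 102 to 115 CPM in si mH2A1.2. The 95% intervals of its log2 fold changes from si Ctrl were -0.34 to 0.27 with si mH2A1.1 and -0.28 to 0.33 with si mH2A1.2. *Twist2*, a basic helix-loop-helix factor also on chromosome 1 (91801461 to 91848028), was at 3.27, 4.80 and 3.74 CPM in si Ctrl, 3.09, 3.73 and 2.86 CPM in si mH2A1.1, and 3.61, 5.69 and 5.48 CPM in si mH2A1.2. In the direct comparison of the knockdowns a log2 fold change of -0.61 was fitted with an adjusted p of 0.0766 from edgeR, and -0.60 and 0.0311 with the replicate number as a block. *Gm29100*, an antisense gene with 9 to 35 counts per library, shares 1477 exonic bases with *Twist2*.

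Members whose libraries did not overlap between conditions were 3 of 9 in si mH2A1.1 against si Ctrl, where 34.2% of genes did not overlap. They were 2 of 9 in si mH2A1.2 against si Ctrl (22.5% of genes) and 4 of 9 between both knockdowns (39.7% of genes). These shares are near those of all genes. With the replicate block, 3 members were called with si mH2A1.1 against si Ctrl (20.8% of genes), none with si mH2A1.2 (5.14%), and 4 between both knockdowns (29.0%). DESeq2 called 4, none and 3 members (16.7%, 6.24% and 23.4% of genes), with *Scx* higher and *Osr1* lower beside *Snai1* and *Runx2* in si mH2A1.1. For limma-voom the counts were 0, 0 and 3 (10.7%, 2.05% and 22.1% of genes), and in si mH2A1.1 *Runx2* then had an adjusted p of 0.0518 and *Snai1* one of 0.0757.

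**Figure D3:**
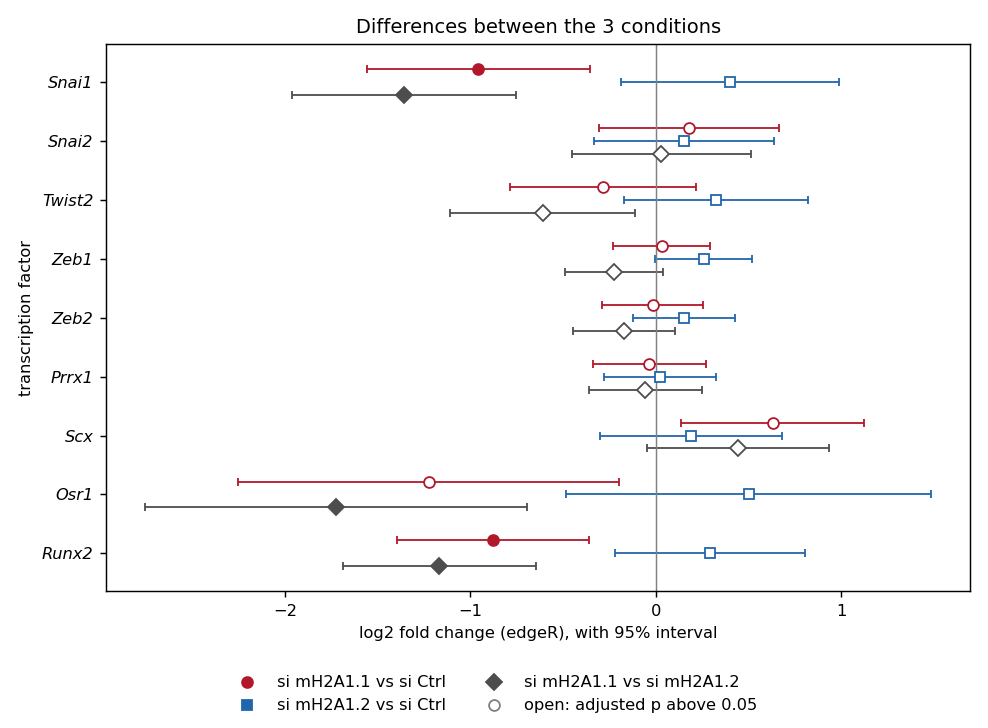
Log2 fold change of each tested factor in the 3 comparisons, with 95% intervals from edgeR. Filled symbols passed an adjusted p of 0.05. The filled symbols are *Snai1* and *Runx2* with si mH2A1.1 against si Ctrl, and *Snai1*, *Osr1* and *Runx2* with si mH2A1.1 against si mH2A1.2.

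The genes whose pattern was most like each called member were found by the root mean square difference of log2 CPM over the 9 libraries, each gene centred on its mean, among 14380 genes. For *Snai1* these were *Alcam*, a cell adhesion molecule (0.124), *Pappa2*, a protease of insulin-like growth factor binding proteins (0.182), and the transcription factor *Foxo1* (0.182). For *Runx2* these were *Fam102a* (0.124), *Fkbp11* (0.132) and *Agbl5* (0.134). *Osr1* was most like *Ndrg1* (0.298), *Camk1g* (0.312) and *Lox*, the collagen cross-linking enzyme (0.315). *Snai1* and *Runx2* differed from each other by 0.210, beside a spread of 0.639 and 0.561 of their own. *Runx2* was lowest in replicate 1 of every condition, as was *Snai1* in si Ctrl and si mH2A1.2. All genes compared share library and depth, so the likeness is a description.

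The partners and corepressors of these factors were tested in 22 of 25 listed genes, among them the E proteins that pair with Twist and Scx, the Id inhibitors, the corepressor enzymes and the Runx partner *Cbfb*. With si mH2A1.1, 2 were higher and 1 lower at a median log2 fold change of -0.04. *Hdac1*, a histone deacetylase, was at 41.6 ± 7.26 against 24.3 ± 1.51 CPM (log2 fold change 0.78, adjusted p = 0.0131 from edgeR). The histone demethylase *Kdm1a* had a log2 fold change of 0.35 (adjusted p = 0.0366). *Tcf4*, an E protein, was at 113 ± 18.4 against 170 ± 29.1 CPM (log2 fold change -0.59, adjusted p = 0.0397). The count of 3 became 0 without si Ctrl replicate 2 or 3 and 1 without si mH2A1.1 replicate 1 or 3 or si mH2A1.2 replicate 2, and it was 6 with the replicate block. With si mH2A1.2 none was called in edgeR, although 21 of the 22 fitted values were above 0. There, 6 had an unadjusted p under 0.05, and 3, 0 and 2 were called by DESeq2, limma-voom and edgeR with the block. Between the knockdowns 7 were lower and 1 higher in si mH2A1.1. That count of 8 was 3 to 5 without si Ctrl replicate 1 or 3, si mH2A1.1 replicate 2 or 3, or si mH2A1.2 replicate 2 or 3.

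Of 47 other transcription factors of mesenchyme, tendon and bone, 36 were tested. With si mH2A1.1, 2 were called, and the nuclear receptor *Nr2f1* was the 1 that was lower (25.1 ± 6.00 to 14.7 ± 1.33 CPM, log2 fold change -0.78, adjusted p = 0.0237 from edgeR). *Nr2f1* was higher with si mH2A1.2, at 46.4 ± 5.90 CPM (log2 fold change 0.88, adjusted p = 0.0326), as were *Egr2* (1.19, adjusted p = 0.0296) and the forkhead factor *Foxc1* (0.79, adjusted p = 0.0433). Between the knockdowns 5 were higher and 8 lower in si mH2A1.1. With the replicate block 8, 6 and 18 were called in these 3 comparisons. The count of 2 with si mH2A1.1 was 0 without si Ctrl replicate 2 or 3 or si mH2A1.1 replicate 1 or 3. That of 3 with si mH2A1.2 was 0 or 1 without si mH2A1.1 replicate 3, any 1 si Ctrl or any 1 si mH2A1.2 library, and 5 without si mH2A1.1 replicate 1.

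All 16 genes of the TGF-beta pathway, a known inducer of Snail and Zeb genes, were tested. With si mH2A1.1, 2 were higher and 3 lower at a median of -0.51. Chosen after their values were seen because they are few, these were the ligand *Tgfb2* (0.63) and the receptor *Tgfbr1* (0.41), which rose, and the ligand *Tgfb3* (-0.50), *Ltbp1* (-0.57) and the Smad inhibitor *Skil* (-0.58), which fell. With si mH2A1.2, 4 were higher and none lower, at a median of 0.33. *Ltbp2*, which encodes a matrix protein related to the binders of latent TGF-beta, was at 77.4 ± 5.97 against 19.4 ± 3.18 CPM (log2 fold change 1.99, adjusted p = 0.00426 from edgeR), the receptor *Tgfbr2* had 0.78 (adjusted p = 0.0253) and *Ltbp3* had 0.63 (adjusted p = 0.0390). The fourth was *Skil* (0.68). Between the knockdowns 11 were lower and 1 higher in si mH2A1.1.

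With the replicate block, 11 TGF-beta pathway genes were called with si mH2A1.1, 2 higher and 9 lower. Of the 5 called without the block, none was left without si Ctrl replicate 2 or 3 or si mH2A1.1 replicate 3, and 1 without si mH2A1.1 replicate 1 or si mH2A1.2 replicate 2. The 4 called with si mH2A1.2 became 1 without si Ctrl replicate 1 or si mH2A1.2 replicate 1 or 2, and 2 without si Ctrl replicate 2 or 3 or si mH2A1.1 replicate 2 or 3.

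Epithelial genes, the textbook targets of repression by Snail, Slug and Zeb proteins, were tested in 16 of 34 cases, since the others did not pass the filter on low counts. With si mH2A1.1 only *Elf3*, an epithelial ETS factor, was called among them (1.81, adjusted p = 0.0467 from edgeR). Its level was 0.837 ± 0.276 CPM, against 0.236 ± 0.180 CPM in si Ctrl. *Elf3* passed the filter on low counts only through its si mH2A1.1 libraries, so nothing is drawn from this call. With si mH2A1.2, *Krt19* fell from 18.0 ± 4.84 to 5.59 ± 0.979 CPM (log2 fold change -1.69, adjusted p = 0.0247) and *Pkp3*, of the desmosome, was below 1 CPM in all groups (-1.93, adjusted p = 0.0294). The summed level of the list was 409 to 513 CPM in si Ctrl, 339 to 477 CPM in si mH2A1.1 and 415 to 541 CPM in si mH2A1.2. The median log2 fold changes were -0.23 and -0.30. With the replicate block 4 were called in each knockdown, with si mH2A1.1 1 higher and 3 lower and with si mH2A1.2 2 in either direction. With 1 library left out, the call of *Elf3* held only without si Ctrl replicate 3 or si mH2A1.1 replicate 2, when 1 and 4 genes were called. The 2 calls with si mH2A1.2 became 0 without si Ctrl replicate 1 or 2 or si mH2A1.2 replicate 1 or 2, and 1 without si Ctrl replicate 3.

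Products of mesenchymal cells, such as matrix proteins and cadherins, are known targets or companions of these factors. All 34 listed genes of the matrix and of mesenchymal cells were tested. With si mH2A1.1, 15 were lower and 2 higher, at a median log2 fold change of -0.58. *Postn*, which encodes the matrix protein periostin, was at 48.6 ± 25.0 against 339.5 ± 128 CPM (adjusted p = 0.00472 from edgeR) and the cadherin *Cdh11* at 6.31 ± 2.13 against 24.1 ± 5.29 CPM (-1.93, adjusted p = 0.00290). Against the direction of the list, *Fap*, the fibroblast activation protease, was higher (2.79, adjusted p = 0.00497). It was at only 1.23 ± 0.453 CPM, against 0.175 ± 0.0509 CPM in si Ctrl. *Fap* passed the filter on low counts only through its si mH2A1.1 libraries, so nothing is drawn from this call. With si mH2A1.2, 6 were higher and none lower at a median of 0.61, with *Cdh11* at 79.4 ± 8.51 CPM (1.72, adjusted p = 0.0106). Between the knockdowns 20 were lower and 2 higher in si mH2A1.1, and this count of 22 stayed between 21 and 23 with any 1 library left out.

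The count of 17 against si Ctrl was 7 without si Ctrl replicate 2 or si mH2A1.1 replicate 1, and 9 without si Ctrl replicate 3 or si mH2A1.1 replicate 3. The count of 6 with si mH2A1.2 was 1 to 3 without si mH2A1.1 replicate 3, any 1 si Ctrl or any 1 si mH2A1.2 library. The list holds *Fn1* and *Col1a1*, which the study picked from these samples, so its direction is not independent evidence. The 6 genes the study named for this shift were likewise picked by it from these samples. In edgeR all 6 were lower with si mH2A1.1, at a median of -2.14, and 4 were higher with si mH2A1.2. With si mH2A1.2, DESeq2 called 6, edgeR with the replicate block 5 and limma-voom 4. With si mH2A1.1, limma-voom called 5. *Tmem171*, a membrane protein gene among the 6, had log2 fold changes of -1.91 and 1.31, and the integrin gene *Itga11* had -3.15 and 1.88. The count of 4 became 1 or 2 without si mH2A1.1 replicate 3, any 1 si Ctrl or any 1 si mH2A1.2 library.

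Tendon genes are known to be driven by Scx. Of 23 listed, 22 were found and 18 tested. The list shares genes with the list of matrix and mesenchymal genes and holds *Fmod*, which the study picked from these samples. Its direction is therefore not independent evidence. Of the 18 tested, 8 were lower and 1 higher with si mH2A1.1 at a median of -0.71. The fitted log2 fold change of *Scx* mRNA was 0.63 and not called, and a link between *Scx* and the list was not tested. *Fmod*, the collagen-binding proteoglycan fibromodulin that the study also named, was at 0.147 ± 0.0766 against 3.19 ± 2.28 CPM (log2 fold change -4.43, adjusted p = 0.0169 from edgeR). *Col11a1* was at 0.871 ± 0.370 against 9.99 ± 3.54 CPM (-3.51, adjusted p = 0.00148) and *Cilp*, a cartilage and tendon matrix gene, at 2.86 ± 1.29 against 24.9 ± 12.0 CPM (-3.12, adjusted p = 0.00245). With si mH2A1.2, 3 were higher and none lower, at a median of 0.66, and with the block 5 were higher and 1 lower. *Cilp* was at 121 ± 14.2 CPM (2.28, adjusted p = 0.0138) and *Fmod* at 89.5 ± 65.5 CPM (4.81, adjusted p = 0.00832). *Tnmd*, the marker of tendon cells, had at most 6 counts in any library. The count of 9 with si mH2A1.1 was 5 without si Ctrl replicate 2 or si mH2A1.1 replicate 1 or 3, and that of 3 with si mH2A1.2 was 1 without si Ctrl replicate 3 or si mH2A1.2 replicate 1.

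Of the osteoblast and cartilage genes around Runx2, 15 of 24 were tested. With si mH2A1.1, 3 were lower and 1 higher, at a median of -0.12. *Bmp4*, a bone morphogenetic ligand, was at 0.593 to 1.56 against 5.51 to 13.7 CPM (log2 fold change -2.96, adjusted p = 0.00331 from edgeR), *Tnfrsf11b*, which encodes the decoy receptor osteoprotegerin, had -1.46 (adjusted p = 0.0273) and the vitamin D receptor gene *Vdr* had -0.89 (adjusted p = 0.0301). The 1 that rose, named after its value was seen, was the collagenase *Mmp13* (2.19). It was scarce, with at most 57 counts in any library. It did not exceed 0.335 CPM in any si Ctrl library or 1.31 CPM in any si mH2A1.1 library. *Mmp13* passed the filter on low counts only through its si mH2A1.1 libraries, so nothing is drawn from this call. With si mH2A1.2 *Tnfrsf11b* was higher (1.41, adjusted p = 0.0464), and with the block 3 genes were higher and 2 lower. *Sp7*, the osteoblast factor downstream of Runx2, had at most 17 counts in any library. The count of 4 with si mH2A1.1 was 1 without si Ctrl replicate 2 or 3 or si mH2A1.1 replicate 1 or 3. The count of 1 with si mH2A1.2 was 3 without si mH2A1.1 replicate 1, and 0 without si Ctrl replicate 1 or 3, si mH2A1.1 replicate 3 or any 1 si mH2A1.2 library.

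**Figure D4:**
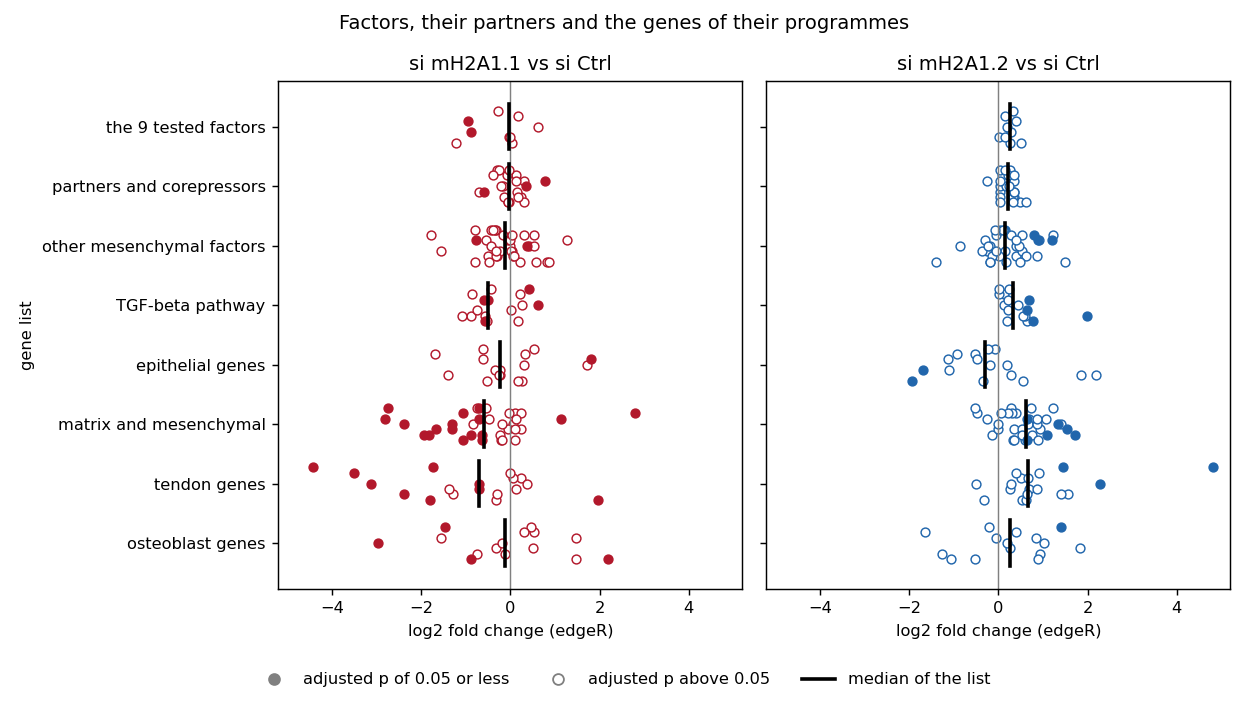
Log2 fold changes from si Ctrl of the tested genes of each list, with si mH2A1.1 at left and si mH2A1.2 at right. Each circle is 1 gene, filled where the adjusted p was 0.05 or less, and black lines are medians. The median of the factors at left is -0.03, with members on both sides of 0, and the matrix and tendon genes have medians of -0.58 and -0.71 there and of 0.61 and 0.66 at right. The matrix and tendon lists share genes.

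Other groups moved in the same libraries, and their part in the results above was not tested. Of 20 interferon-induced genes, 18 were higher with si mH2A1.1 at a median log2 fold change of 3.58, and none was called with si mH2A1.2 in edgeR (2 at an unadjusted p under 0.05, 1 in DESeq2, 0 in limma-voom). *Oas1a*, *Oas1g*, *Oas2* and *Oasl1* of this list did not exceed 0.240 CPM in any si Ctrl library. They passed the filter on low counts only through si mH2A1.1, so the counts and the median of the list rest partly on them. The summed level of the 20 genes was 128 to 153 CPM in si Ctrl, 337 to 1048 CPM in si mH2A1.1 and 113 to 152 CPM in si mH2A1.2. Among them *Oas2*, an RNA sensor of the interferon response, was at 99.8 ± 79.1 against 0.185 ± 0.0555 CPM, and *Oasl2* had a log2 fold change of 3.98 (adjusted p = 0.00242 from edgeR). All 18 proliferation markers had fitted values above 0 with si mH2A1.1, and 4 of them were called, among them *Plk1*, *Tyms* and *Kif11* with log2 fold changes of 1.09, 1.09 and 0.94. Their summed level was 519 to 759 CPM in si Ctrl, 699 to 1452 CPM in si mH2A1.1 and 412 to 565 CPM in si mH2A1.2. The count of 4 was 15 with the replicate block and 16 without si mH2A1.1 replicate 2. It fell to 0 without si Ctrl replicate 2 or 3 or si mH2A1.1 replicate 1 or 3, to 1 without si mH2A1.2 replicate 2 and to 2 without si mH2A1.2 replicate 3. With si mH2A1.2, 17 of the 18 fitted values were below 0 and none was called. Between the knockdowns 17 of the 18 proliferation markers and all 20 interferon-induced genes were called higher in si mH2A1.1, beside 12.0% of all genes. With 1 library left out these counts were 9 to 17 and 19 to 20.

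Among 28 myotube genes, 2 were higher and 3 lower with si mH2A1.1 at a median log2 fold change of -0.16. With si mH2A1.2, 3 were lower and none higher at a median of -0.42, and 24 of the 28 fitted values were below 0. The fast myosin genes *Myh1* and *Myh4* were the 2 that rose with si mH2A1.1, by 1.26 and 1.57 on the log2 scale, and with si mH2A1.2 *Myh1* fell by 1.76 and the troponin gene *Tnnt3* by 0.96. The summed level of the list was 31668 to 47102 CPM in si Ctrl, 29633 to 35373 CPM in si mH2A1.1 and 25879 to 33420.2 CPM in si mH2A1.2, so the ranges overlapped. With the replicate block, 6 were higher and 8 lower with si mH2A1.1, and 9 were lower with si mH2A1.2. Between the knockdowns 8 were higher and 4 lower in si mH2A1.1, a count of 12 that was 5 to 13 with 1 library left out. The count of 5 with si mH2A1.1 was 0 or 1 without si Ctrl replicate 2 or 3 or si mH2A1.1 replicate 1 or 3. The count of 3 with si mH2A1.2 was 0 or 1 without si Ctrl replicate 1 or 3, si mH2A1.1 replicate 3 or any 1 si mH2A1.2 library. Of 13 tested markers of undifferentiated myoblasts, *Hey1* was higher with si mH2A1.1 (1.46) and *Myf5* lower with si mH2A1.2 (-0.84). With the block 6 and 2 were called, and summed levels were 2859 to 4250.4 CPM in si Ctrl, 3964 to 4623 CPM in si mH2A1.1 and 2623 to 4169 CPM in si mH2A1.2. The call of *Myf5* was lost without any 1 of the 9 libraries. Without si Ctrl replicate 2 or 3 or si mH2A1.1 replicate 1 the count with si mH2A1.1 was 0, and without si mH2A1.1 replicate 2 or si mH2A1.2 replicate 1 it was 2.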

How the data were processed

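mRNA was sequenced by the authors as single reads of 50 bp, and reads per gene were estimated with Salmon on GRCm38. The deposited expected counts, estimated reads per gene as whole numbers, were used. A second deposited table holds these counts normalized and was not used. Symbols, positions and exon lengths came from GENCODE M21 (GRCm38), which names 52762 of the 52780 genes, and promoters from RefSeq. The members and lists were chosen with earlier results of these data known.

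All 9 libraries were fitted in 1 model with edgeR 4.0.16 (quasi-likelihood test in legacy form, TMM, filterByExpr, R 4.3.3), and 3 contrasts were adjusted by the Benjamini-Hochberg method over 19545 genes. A gene was called at an adjusted p of 0.05 or less, as in the study's methods. Those methods used DESeq2, and the study's figure of differential genes used the stricter cutoffs. The test was checked on simulated data. CPM were scaled by TMM. Intervals of fold changes are at 95% and come from the model. The floor of 3 counts covers counting error alone, because duplicate reads of 1 molecule were not told apart.

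Replicate numbers came from the labels. Deviations from group means correlated between same-numbered samples in every pair, with r of 0.11 to 0.15 for si mH2A1.1 and si Ctrl, 0.34 to 0.47 for si mH2A1.2 and si Ctrl, and 0.10 to 0.19 between the knockdowns, so the numbers were taken to pair samples. The labels state no pairing. The column headers number the samples of each replicate consecutively, and what these numbers stand for is not stated. The main model holds no replicate block, so its p-values and the exact p-values of the ratios do not use the pairing. The study's legend speaks of independent biological replicates. Alternatives were DESeq2 1.42.0, its size factors, limma-voom (limma 3.58.1), edgeR's newer form, other filters, the replicate block, only the contrast's samples, stricter and unadjusted cutoffs, and leaving out each library. Beside the members and *H2afy*, genes named were up to 3 of each list with the lowest p among those called against si Ctrl, or the 2 most abundant of the list where fewer than 2 were called, and the 3 genes most like each called member among genes of at least 1 CPM. A further called gene among the other transcription factors is not reported here.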

Additional observations from a re-analysis of the deposited data

How the results depend on the processing

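The number of members called with si mH2A1.1 against si Ctrl, 2, was 4 with DESeq2, 4 at an unadjusted p under 0.05 (29.6% of all genes), 0 with limma-voom and 0 at the stricter cutoffs, and 0 to 2 with 1 library left out. It was 0 without si Ctrl replicate 2 or 3 or si mH2A1.1 replicate 1 or 3. It was 1 without si mH2A1.1 replicate 2 (*Scx*), without si mH2A1.2 replicate 2 (*Runx2*) and without si mH2A1.2 replicate 3 (*Snai1*). A library left out also removes a degree of freedom. The count between the knockdowns, 3, was 2 to 4, and that with si mH2A1.2 was 0 throughout. Pairing the samples by a replicate block gave 3 called members for si mH2A1.1, 4 between the knockdowns and 0 for si mH2A1.2, and it changed no call of a member beyond *Osr1* and *Twist2*. Settings other than a library left out turned no direction. With 1 library left out, fitted values crossed 0 for *Snai2* with si mH2A1.2 (-0.0818 to 0.355) and between the knockdowns (-0.18 to 0.26), for *Zeb1* (-0.0633 to 0.126) and *Zeb2* (-0.13 to 0.12) after si mH2A1.1, and for *Prrx1* in si mH2A1.1 cells (-0.14 to 0.11), in si mH2A1.2 cells (-0.0763 to 0.0920) and between the knockdowns (-0.156 to 0.0763), none of them called. Counts over all genes moved as well: 2171, 460 and 4397 genes were called in edgeR, and 4065, 1005 and 5674 with the block. DESeq2 called 3354, 1113 and 5037 genes. Of the lists, DESeq2 called 14 matrix and mesenchymal genes and 7 tendon genes with si mH2A1.2, and 9 TGF-beta pathway genes and 12 proliferation markers with si mH2A1.1. Depth limits *Twist1*, at most 1 count, and *Osr1*, from 23 counts. The causes of these differences were not tested.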

Other observations

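Markers of other cell types were examined as well. Of 10 macrophage and leukocyte markers 2 passed the filter, and *Cd68*, a lysosomal protein of macrophages that other cells also make, was higher with si mH2A1.1 (9.14 ± 2.97 against 2.98 ± 0.565 CPM, log2 fold change 1.62, adjusted p = 0.00565 from edgeR). *Ptprc*, the pan-leukocyte marker CD45, had at most 9 counts and *Adgre1* at most 1. The other tested marker, *Itgam*, had a log2 fold change of 0.09 and was not called. Of 9 endothelial markers 6 were tested, with *Tek* higher with si mH2A1.1 (1.84, adjusted p = 0.0330) and *Egfl7* lower with si mH2A1.2 (-1.53, adjusted p = 0.0225). Both calls were lost without any 1 si Ctrl library. That of *Tek* was also lost without si mH2A1.1 replicate 1 or 3 or si mH2A1.2 replicate 2, and that of *Egfl7* without si mH2A1.2 replicate 1 or 2.

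Of 8 adipocyte markers 5 were tested. *Lpl*, lipoprotein lipase, was at 48.0 ± 0.322 CPM in si Ctrl, 75.5 ± 11.8 CPM in si mH2A1.1 (log2 fold change 0.65, adjusted p = 0.00845 from edgeR) and 29.5 ± 1.45 CPM in si mH2A1.2 (-0.70, adjusted p = 0.0183). *Adipoq* had at most 2 counts. With the replicate block, 2 adipocyte markers were called in each knockdown. The call of *Lpl* with si mH2A1.2 was lost without si Ctrl replicate 1 or 3 or si mH2A1.2 replicate 1 or 2.

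Of 12 markers of fibro-adipogenic progenitors, the resident fibroblasts of muscle, 11 were tested. With si mH2A1.1, *Clec3b*, named after its value was seen, was higher (log2 fold change 1.30, adjusted p = 0.0443 from edgeR) and *Lum* lower (-2.74, adjusted p = 0.00608). In si mH2A1.2 cells *Dpt* (1.74, adjusted p = 0.0365) and *Mfap5* (1.73, adjusted p = 0.0239) were higher. With the block 3 were called in each. Without 1 library the count of 2 with si mH2A1.1 was 1 for each si Ctrl library and for si mH2A1.1 replicates 1 and 3, and 4 for si mH2A1.1 replicate 2. That of 2 with si mH2A1.2 was 0 or 1 for each si Ctrl library, si mH2A1.1 replicate 3 and si mH2A1.2 replicates 1 and 2. The list's summed level was 1195 to 1460 CPM in si Ctrl, 1125 to 1653 CPM in si mH2A1.1 and 1370 to 1719.9 CPM in si mH2A1.2, with overlapping ranges.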
